A study of Ovis aries with 2 samples.

Results

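The sheep gene NOS2, which encodes inducible nitric oxide synthase, was assigned 4 of the 2288 intervals that the authors called in chromatin precipitated with an antibody against PPARG from day 14 conceptuses. Its intervals were chosen as those whose list of assigned genes, in the authors' table, names NOS2. They lie on chromosome 11 of build Oar_v3.1, and each was assigned to NOS2 and to no other gene. The conceptus is the embryo with its extraembryonic membranes. Per the labels, tissue of 4 conceptuses from separate columbia/ramboulette crossbred ewes was pooled, and the series holds 1 library precipitated with the rabbit polyclonal antibody Santa Cruz sc-7196 and 1 input library of unprecipitated chromatin, both from day 14 of pregnancy. The labels name no treatment. The pooled tissue does not separate trophectoderm from other cells of the conceptus. Because the libraries hold DNA and no RNA measure, neither the cell types present nor the transcription of NOS2 could be checked. Neither library was replicated, so the values carry no biological error and no test was made. NOS2 was selected on its number of intervals in this library, so that number and the heights are a description.

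Nitric oxide synthases make nitric oxide and citrulline from arginine, with tetrahydrobiopterin as a cofactor and calmodulin as a bound subunit. The inducible enzyme is best known from activated macrophages, where cytokines and bacterial products switch on the gene, and in mouse macrophages PPARG ligands lower that induction. PPARG, or peroxisome proliferator-activated receptor gamma, is a lipid-sensing nuclear receptor that pairs with retinoid X receptors on DNA. In the pregnant ewe, arginine reaches the conceptus in uterine fluid and feeds the synthesis of both nitric oxide and polyamines while the trophectoderm elongates.

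The 4 intervals surrounded the start of NOS2, with a pair upstream of it and a pair inside the gene. The summits and the authors' signed distances gave the same gene start, position 19032931, for all 4, and distances grew as positions fell, so the gene runs toward lower positions on the chromosome. Heights are the highest signal of the density track in an interval, in the authors' units, of unstated scaling. The farther upstream interval (19036045 to 19036786) had its summit 3613 bp before the start and a height of 37 signal units. The nearer one (19035089 to 19035993) had its summit 2557 bp before the start and a height of 35. The first interval inside the gene (19028639 to 19030236) had its summit 3667 bp past the start and a height of 30. The inner interval (19003618 to 19004647), at 28707 bp past the start, had a height of 16. Heights were thus highest upstream of the start and lowest deep in the gene, a ratio of 2.31 between the extremes. Whether the intervals inside the gene cover exons or introns was not analysed here.

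**Figure D1:**
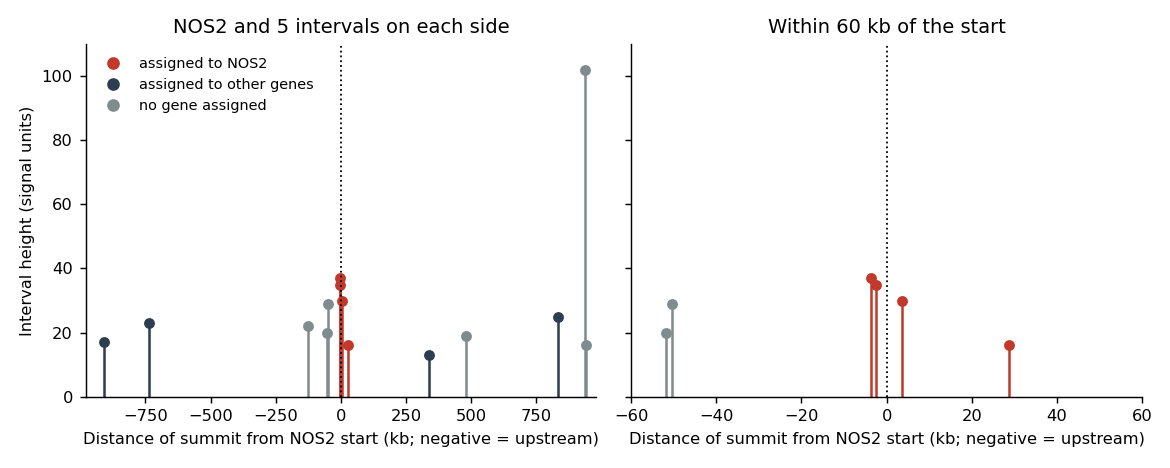
Height of each PPARG interval in signal units (vertical axis) against the distance of its summit from the NOS2 start in kb (horizontal axis, negative upstream), for the NOS2 intervals and 5 neighbours on each side (left) and close to the start (right). The NOS2 intervals reach 37, 35, 30 and 16, and the tallest neighbour, of 102, has no assigned gene.

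Against all PPARG intervals, 3 of the 4 NOS2 intervals were at or above the median height of 22, as were 52.4% of all intervals. The farther upstream interval was higher than 82.6% of the list and the nearer one than 80.1%. The first gene interval exceeded 72.7%, and the inner one 18.4%. None of them was among the extremes of a list that ran from 10 to 155. On the chromosome of NOS2, 29 of 148 intervals were at least as high as the farther upstream interval, and the median there was 23.

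The mean signal of each interval ranked the upstream pair somewhat higher. It was 16.6 in the farther and 14.5 in the nearer upstream interval, above 90.1% and 83.5% of all intervals. The first gene interval had a mean of 11.5 and the inner one 9.72, above 62.8% and 40.4%. The intervals also differed in shape. The farther upstream interval was short, at 741 bp, against a median of 876 bp over the list. The first gene interval was 1597 bp long, longer than 95.9% of the list, with a height 2.62 times its mean signal. The inner interval was broad and low by the same measure, with a height 1.65 times its mean, a ratio higher than in only 8.48% of intervals.

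The mean signal multiplied by the number of bins gives the summed signal of an interval. It was 573 in the first gene interval, 406 in the nearer and 381 in the farther upstream interval, and 311 in the inner interval. The upstream pair together held 47.1% of the 1671 units summed over NOS2, and the first gene interval held 34.3%. By this sum NOS2 ranked 12 of 1805 names other than tRNA names, whose median was 337. By its highest interval alone NOS2 ranked 394, a place that 41 names shared. NOS2 was selected on its number of intervals and 87.6% of names had 1, so a higher rank by the sum follows from the selection.

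Both upstream intervals carried the authors' promoter mark, although neither reached the gene start at 19032931, so the mark was read as a label only. No NOS2 interval held a CpG island, the GC-rich stretch found at many promoters. Of the 749 promoter-marked intervals in the list, 326 (43.5%) likewise had no CpG island, and these had a median height of 21. The upstream NOS2 intervals were higher than 85.0% and 83.1% of that class. Promoter-marked intervals with a CpG island had a median of 27. Inside genes, intervals without a promoter mark numbered 586 and had a median of 21. The first gene interval was higher than 75.9% of them and the inner one than 20.5%.

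**Figure D2:**
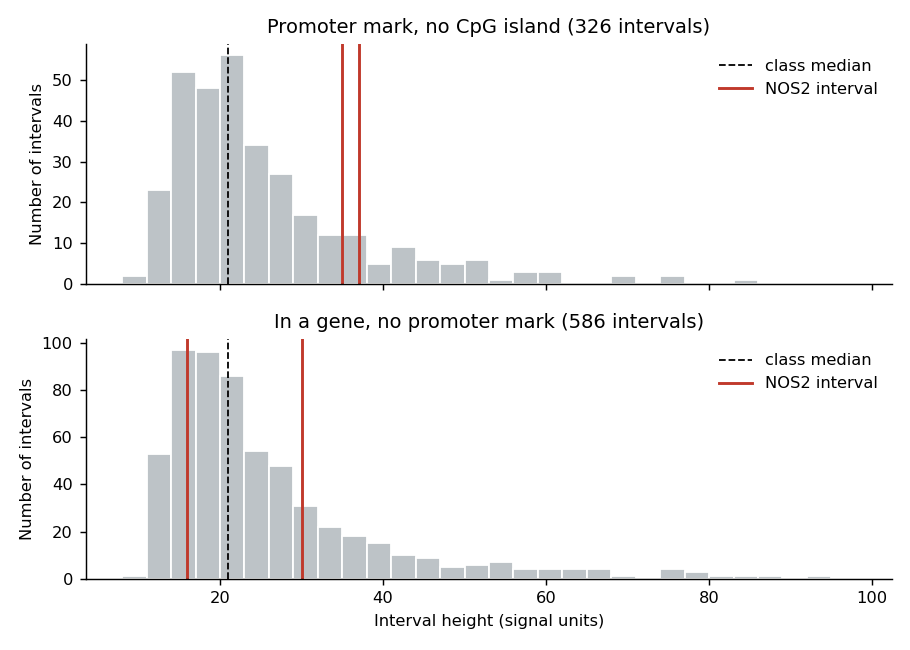
Number of intervals (vertical axis) by height in signal units (horizontal axis) for promoter-marked intervals without a CpG island (top) and intervals in a gene without a promoter mark (bottom). Both upstream NOS2 intervals, at 35 and 37, lie above the class median of 21, while the intervals inside the gene, at 16 and 30, lie on either side of it.

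The upstream intervals of NOS2 were almost contiguous. Only 52 bp separated the end of the nearer from the start of the farther interval, and their summits were 1056 bp apart, so that together they covered 1697 bp. Gaps under 100 bp occurred in 10 of 2261 pairs of neighbouring intervals (0.442%), and the median gap was 355 kb. The peak caller kept both summits as separate intervals. Whether they stand for separate binding sites or for 1 site that was divided in calling was not tested.

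Few genes had more than 1 promoter-marked interval close upstream. Of 516 names with such an interval within 5 kb upstream of the start, 15 had at least 2 (2.91%). Of these, HSPA1A and LSM2 had theirs in common. Over all 1805 names, 87.6% had 1 interval and could not have 2, and NOS2 was selected on its number of intervals. A place among the 15 therefore follows in part from the selection. The lower interval of the NOS2 pair, at 35, was the highest among the lower intervals of the 15 names. It was followed by 33 for PFKFB2, which encodes a kinase and phosphatase that sets the rate of glycolysis. The higher of the PFKFB2 intervals reached 68, and both held a CpG island. CREB3, a membrane-bound transcription factor gene, had 25 and 28. LPCAT3, which encodes a lysophospholipid acyltransferase, had 24 and 46, and its intervals were 51 bp apart, as close as those of NOS2 within 1 bp. In 8 of the 15 names, NOS2 included, neither interval of the pair held a CpG island. In 4, NOS2 included, neither interval was assigned to another gene.

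**Figure D3:**
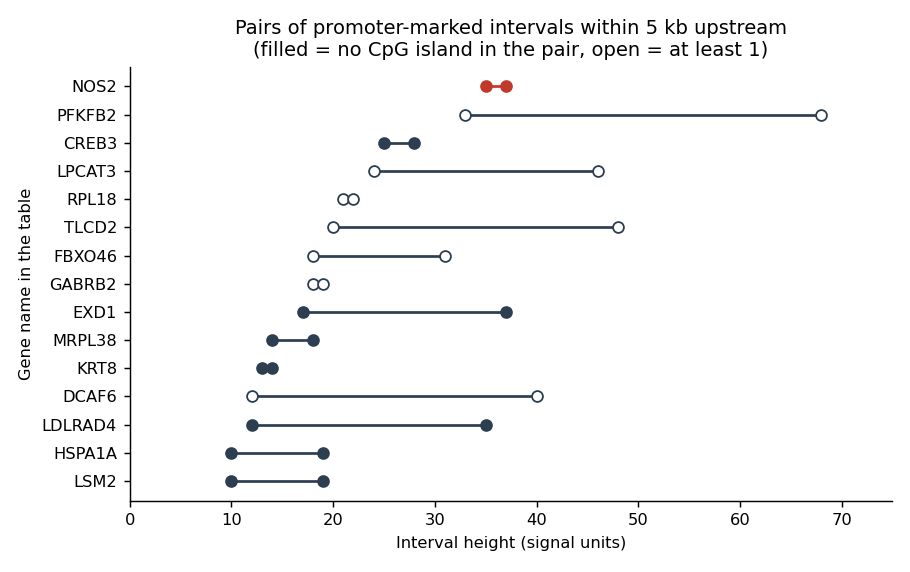
Heights in signal units (horizontal axis) of the paired promoter-marked intervals within 5 kb upstream of each of 15 gene names (vertical axis), filled where neither interval holds a CpG island. The NOS2 pair lies at 35 and 37, and the lower member of every other pair is at 33 or below.

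The number of intervals assigned to NOS2 was matched by few names. Among 1805 names, 1582 (87.6%) had 1 interval, 186 had 2, 27 had 3, and 10 (0.554%) had 4 or more on a chromosome, NOS2 included. With intervals closer than 1 kb joined, the upstream pair counted as 1, and 29 names (1.61%) had at least the 3 intervals then left at NOS2. Without joining, the other names with 4 or more intervals were C3H2orf18, ACOT11, ARID5B, ERBB2, ABCA4, FADS2, FTO, VMP1 and KRT8. Of these, ACOT11, ABCA4, FADS2 and VMP1 had 5. None of the 10 names had a CpG island in any of these intervals. Over the whole list, 568 of 2288 intervals (24.8%) held one. In 6 of them, NOS2 among them, every interval was assigned to that name alone. ERBB2 had 2 of 4 to itself, FADS2 3 of 5, VMP1 2 of 5 and KRT8 1 of 4. Counted per interval and not per name, 29.1% of the 1518 assigned intervals in the list were assigned to 2 or more genes.

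Ordered by the difference of their median heights from the 32.5 of NOS2, the nearest name was C3H2orf18 on chromosome 3, with heights of 32, 29, 28 and 25 and a median of 28.5. ACOT11, an acyl-CoA thioesterase gene, followed with a median of 24. ARID5B, which encodes a chromatin-binding protein, and ERBB2, an epidermal growth factor receptor family gene, both had 21. ABCA4, a lipid transporter gene, and FADS2, a fatty acid desaturase gene, had 20, FTO, an RNA demethylase gene, had 19.5, VMP1, which encodes an autophagy protein, had 16, and KRT8, an epithelial keratin gene, had 13.5. The median of NOS2 was thus above those of the other 9 names, although the highest single interval of ARID5B (63), ABCA4 (52), ERBB2 (44), ACOT11 (43) and VMP1 (39) exceeded that of NOS2. These are orders within 1 library, without an error.

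**Figure D4:**
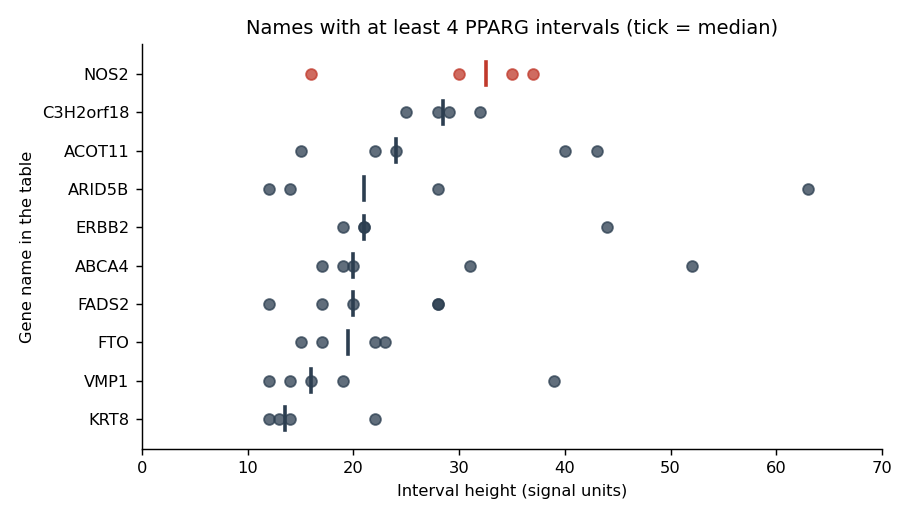
Heights in signal units (horizontal axis) of every PPARG interval of the 10 names with at least 4 intervals (vertical axis), with the median of each name as a tick. NOS2 has a median of 32.5, and its 3 upper intervals lie between 30 and 37.

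NOS2 also differed from most of these names in where its intervals lay. In 7 of the 10 names no interval was upstream of the start. Over all 1805 names, 34 (1.88%) had both an upstream and an in-gene interval, and 2, NOS2 and C3H2orf18, had at least 2 of each. The 1582 names with 1 interval could not have both, so the 34 fell among the 223 names with several on a chromosome. Only the 10 names selected for 4 or more intervals could have 2 of each. In C3H2orf18 the upstream summits were 8601 and 3609 bp before the start, and its 4 summits spanned 14.4 kb. The KRT8 intervals lay upstream in 3 of 4 cases, but those were shared with another gene. Intervals of FTO, in contrast, were spread over 295 kb and all lay inside the gene.

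The summits of the 4 NOS2 intervals spanned 32.3 kb. Among 2207 runs of 4 neighbouring intervals on a chromosome, 9 were as tight (0.408%), in 8 separate clusters, and the median span was 1962 kb. NOS2 was selected on its number of intervals, and upstream assignments reached at most 10470 bp. A short span therefore follows in part from the selection. With intervals closer than 1 kb joined, 33 of 2181 runs of 3 (1.51%) were as tight as the 3 then left at NOS2, and among intervals higher than 16, 2 of 1698 runs of 3 (0.118%) were as tight as the upper 3 of NOS2. Both counts were chosen after seeing the data. The cut of 16 is the height of the lowest NOS2 interval, so it drops the member that widens the NOS2 run. The other tight runs lay at VMP1 with TUBD1, at KRT8 with KRT18, at ERBB2 with GRB7 and MIEN1, at C3H2orf18, at LPCAT3, at a tRNA gene name and at an unassigned site on chromosome 3. Median heights in the 9 runs ran from 13.5 to 34, and NOS2 ranked 2 behind the run at LPCAT3.

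**Figure D5:**
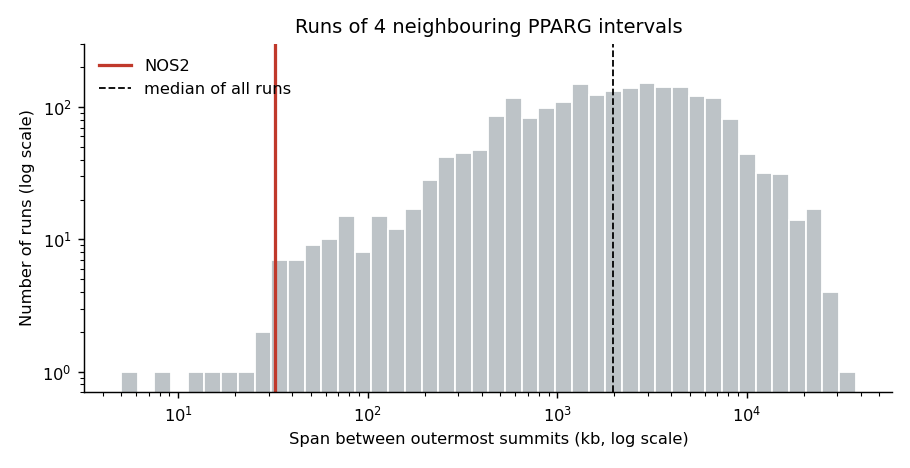
Number of runs of 4 neighbouring PPARG intervals (vertical axis, log scale) by the span between their outermost summits in kb (horizontal axis, log scale). The NOS2 run spans 32.3 kb, and the median of all runs is 1962 kb. NOS2 was selected on its number of intervals, so a short span follows in part from the selection.

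Beyond the gene start, 3 further intervals followed on the upstream side with no gene assigned. Their summits lay 50.4, 51.9 and 128 kb upstream of the NOS2 start, with heights of 29, 20 and 22. The first (19082919 to 19083897) and second (19084178 to 19085325) were 281 bp apart, against 52 bp in the upstream NOS2 pair. Of all 2261 gaps, 23 were under 300 bp (1.02%), a cut just above this gap of 281 bp and wider than the 100 bp used for the NOS2 pair. None of the 3 held a CpG island or a promoter mark. Upstream assignments in the authors' table reached at most 10470 bp, so these 3 lay farther upstream of NOS2 than any upstream assignment in the table. The run of these 3 and the NOS2 intervals stops at a wide gap, and NOS2 was selected on its number of intervals. A short span of that run therefore follows in part from these choices. Its 7 intervals spanned 157 kb, and 5 of 2126 runs of 7 (0.235%) were as tight. Then came 609 kb without an interval, up to one of height 23 (19770633 to 19771552) that held a CpG island and was 10 bp past the start of RPL23A, a ribosomal protein gene. It was also assigned to RAB34, PROCA1, TLCD1 and NEK8. The next, of height 17, lay 851 bp upstream of PHF12, a transcriptional repressor gene, and was also assigned to SEZ6.

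On the other side, 308 kb, which include the rest of the gene, separated the inner NOS2 interval from the next one, a low interval of height 13 in LOC101117683 (18694898 to 18695618). Beyond it lay an unassigned interval of height 19 and one of 25 in RAB11FIP4, which encodes a Rab11 effector of vesicle recycling, 2505 bp past its start. Farther on, an interval (18095067 to 18096572), 937 kb from the NOS2 start and with no gene assigned, had a height of 102, which only 6 other intervals in the list equalled or exceeded. An unassigned interval of height 16 lay just beyond it.

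In RefSeq's list of genes for ARS-UI_Ramb_v3.0, a later sheep assembly used for gene order and names only, NOS2 stands between LGALS9, which encodes the lectin galectin 9, and LYRM9. Genes with an interval of their own around NOS2 came in the same order in both assemblies. Of the 10 nearest named protein-coding genes on each side, 1 of 20, RAB11FIP4, had an interval, against 9.28% of the 16387 named protein-coding genes in the table. LGALS9, LYRM9, NLK, a kinase gene, TMEM97, POLDIP2, IFT20 and TNFAIP1 were among those with none assigned.

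Around the enzyme, genes of the nitric oxide and arginine pathway had intervals about as often as other genes. Of 50 listed members found in the RefSeq table, 4 had one (8.0%, Wilson 95% interval 3.15 to 18.8, counting error over genes only), NOS2 included, against 9.28% of all named genes. Without NOS2 it was 3 of 49 (6.12%). Of the 10 synthase genes and partners, NOS2 was the only one, and neither NOS1 nor NOS3, the neuronal and endothelial synthase genes, had an interval.

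The branches of the pathway hold few genes, so their counts, read against the 9.28% of all named genes with an interval, are given as values only. In the cofactor branch, 2 of 6 genes had an interval. GCH1, whose product catalyses the first and rate-limiting step of tetrahydrobiopterin synthesis, had a height of 25 with the summit 8822 bp past its start (chromosome 7, 64347913 to 64348514). GCHFR, which encodes the feedback regulator of that enzyme, had 18 at 237 bp upstream (chromosome 7, 33329690 to 33330498), in a CpG island interval also assigned to FAM82A2, DNAJC17 and C7H15orf62. Both heights were below those of the 3 upper NOS2 intervals. For arginine supply and use, 1 of 17 had one. It was SLC7A6, an exchanger of cationic for neutral amino acids, with 27 at 3399 bp upstream (chromosome 14, 34975362 to 34976404), in an interval shared with PLA2G15. No interval was assigned to the 10 polyamine genes, ODC1 included, or to the 7 genes of the response to nitric oxide, beside 9.28% of all named genes with one.

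Among 16 genes of factors and receptors known in mouse or human cells to act on NOS2 transcription, 2 (12.5%, Wilson 95% interval 3.50 to 36.0) had an interval, near the 9.28% of all named genes. CEBPB, which encodes a CCAAT/enhancer-binding protein, had 51 at 2361 bp upstream (chromosome 13, 77752718 to 77753896), higher than 93.1% of all intervals. Like the upstream NOS2 intervals it held a promoter mark and no CpG island, and it was assigned to that gene alone. ARNT, which encodes the dimer partner of hypoxia-inducible factors, had 38 with the summit 4168 bp past its start (chromosome 1, 99742648 to 99743763). NFKB1, RELA, IRF1 and HIF1A had none.

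The input library listed 5 intervals in all and none on chromosome 11, so no input height exists for any NOS2 interval. The table gives a signal only where an interval was listed, and the input signal at NOS2 below the calling threshold is not analysed here. An enrichment of ChIP over input at NOS2 therefore cannot be given. The read totals behind the heights are also unknown.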

How the data were processed

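Chromatin of pooled conceptuses was sequenced after precipitation with the PPARG antibody and without it. The submitters' processing notes name BWA and the build Oar_v3.1. Neither these notes nor the labels state the version, peak caller, threshold, scaling or gene annotation. The authors deposited for each interval the maximum and mean signal of a density track in bins (median of interval length over number of bins, 31.9 bp) and, per the file headers, its length, its numbers of bins, CpG islands, promoters and genes, and the signed distance to each assigned gene's start. Mean signal times bins was whole, within 0.01, in 100% of intervals. Analysis used Python 3.11.15 and pandas 2.3.3, and Wilson intervals came from scipy 1.17.1. Positions are those of the file, unchanged. For all 223 names with several intervals on a chromosome, tRNA names left out, summits and distances pointed to the same gene start. Gene names were matched to RefSeq symbols or synonyms of ARS-UI_Ramb_v3.0, whose coordinates served only to order genes and are not printed. NOS1AP, CYB5R3 and HBA1 were not matched and were left out of the list. Counting steps were tested on simulated data. Members, gene lists and comparisons were chosen with earlier results of these data known. Named genes are NOS2, genes assigned to it or to the 5 nearest intervals on each side, the 10 nearest RefSeq genes on each side, list members with an interval, and names with at least as many intervals as NOS2. PFKFB2, CREB3, LPCAT3, HSPA1A, LSM2 and the genes of the other tight runs, and list members or neighbours named as having none, were named after their values were seen. The planned motif search was not run, since no sequence was used. The alternatives tried were height, measure, assignment rule, joining of close intervals, input overlap and names counted.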

Additional observations from a re-analysis of the deposited data

How the results depend on the processing

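The number of NOS2 intervals was 4 without input-overlapping intervals and 4 when assigned to NOS2 alone. Neither setting could change it, since no input interval lay on chromosome 11 and all 4 intervals named NOS2 alone. The number was 3 at or above the median height, 6 within 50 kb of a NOS2 summit and 3 with intervals closer than 1 kb joined. The percentile of the highest NOS2 interval moved from 82.6 to 90.1 by mean signal, and to 80.1 among intervals with a gene. The share of names with as many intervals as NOS2 was 0.554%, 0.603% without LOC names and 1.61% (29 names with 3 or more) after joining, where the upstream pair counts as 1. After joining, 33 of 2181 runs of 3 (1.51%) were as tight as NOS2. Above the height of 16, 2 of 1698 runs of 3 (0.118%) were as tight as the upper NOS2 intervals. The joining of NOS2 intervals and both counts of runs of 3 were chosen after seeing the data. The cut of 16 is the height of the lowest NOS2 interval. The pathway share of 8.0% was 6.0% at or above the median height (5.68% of all named genes) and 8.0% in the gene or within 10 kb of its start (7.86%). No paired analysis was possible because each group has 1 library. Unknown read totals and the missing replicate limit every value.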

Other observations

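The chromosome of NOS2 held 148 of the 2288 PPARG intervals (6.47%). Of the 10 names with at least 4 intervals, 3 lay on it, namely NOS2, ERBB2 and VMP1. Of the 9 runs of 4 intervals as tight as that of NOS2, 4 lay on it, of which those at VMP1 overlapped. With intervals of a height of 16 or lower left out, the only other run of 3 neighbouring intervals as tight as the upper 3 of NOS2, which spanned 7.28 kb, lay at CD276 on chromosome 7. CD276 encodes an immune checkpoint protein. Heights there were 78, 18 and 20, and the highest of them had an input interval with the same bounds. Those at NOS2 were 30, 35 and 37. None of these 3 NOS2 intervals had an input interval. The input library listed 5 intervals in all and none on chromosome 11. What the input interval at CD276 means for the height of 78 was not tested. The cut of 16 is the height of the lowest NOS2 interval.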
